A study of Mus musculus with 16 samples.

Results

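The genes described here build or drive the motile cilium, together with a few markers of the ciliated ependymal cells that line the brain ventricles. They were chosen by name. Genes of the deposited count table qualified if their name began with Dnah, Dnai, Cfap, Rsph, Tekt or Drc followed by a digit, and Foxj1, Ccdc153, Tmem212, Dynlrb2, Rarres2, Dnali1, Spag16, Spag17, Hydin, Mia, Ak7, Armc4 and Spef2 were added. The table held 78 such genes among 55335, none of them a Dnai gene, and the 67 with a mean of 10 or more reads over the 16 mice are described. That mean is the measured value that chose them. Cfap77 (10.1 reads) and Cfap157 (10.2 reads) lay just inside it, and Cfap221 (8.19 reads) and Cfap99 (7.06 reads) just outside. The 11 genes left out had means from 0.0625 reads for Cfap97d1 to 8.19, and included the ependymal marker Mia (1.5 reads), so the label "ependymal" rested on Foxj1, Ccdc153, Tmem212, Dynlrb2 and Rarres2.

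Whole hippocampi of 16 female mice aged 10 months were sequenced, 4 in each of 4 groups. WT mice were of the strain C57BL/6J x 129S1. 3xTg mice carried human APPSwe and tauP301L transgenes under a neuron-specific Thy1.2 element, and are a model of Alzheimer's disease. All 16 animals had a brain cannula and an osmotic pump for 28 days. WT-D and 3xTg-D mice received vehicle (0.8% DMSO in artificial cerebrospinal fluid), and WT-S and 3xTg-S mice received an inhibitor of stearoyl-CoA desaturase (SCDi, CAY10566) at 80 µM in the same vehicle, infused into the cerebral ventricle. The comparisons ask how hippocampal transcripts differ by genotype and by inhibitor, separately and together. WT and 3xTg mice came from separate stocks, per the study's methods. Effects of the transgenes and other differences between the lines cannot be told apart.

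Motile cilia beat through dynein motors, arranged as outer and inner arms on a ring of doublet microtubules. Radial spokes and the central pair of microtubules relay the signals that set the waveform, the nexin-dynein regulatory complex links neighbouring doublets, and tektins are filaments within the doublet wall. Foxj1 is the forkhead transcription factor that switches on this program, acting beside the RFX factors. In the brain, multiciliated ependymal cells use it to move cerebrospinal fluid along the ventricle wall.

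Libraries held 15413385 to 23590149 reads on genes. Of the reads mapped to 1 place, between 7.82% (3xTg-S2) and 15.1% (3xTg-S4) lay outside genes, and WT-S2 (8.55%) and 3xTg-D2 (8.79%) came after 3xTg-S2. Transcripts of the choroid plexus, the fluid-secreting tissue of the ventricles, stood apart in 2 mice. Its 12 listed markers summed to 788 CPM (read counts scaled by library size with TMM factors, the scale of all levels below) in WT-D4 and 317 CPM in WT-S1, against 36.1 to 71.9 CPM in the other 14 mice. Markers of hippocampal granule and pyramidal cells were present in every mouse, summing to 624 to 788 CPM. Each count of DEGs below that involves WT-D4 or WT-S1 is also given without them where it moved by more than 1.5 times.

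Foxj1 and the RFX factors are known to act through promoters of cilia genes. Windows from 250 bases before to 50 after the start were found for 54 of the 67 genes in RefSeq (GRCm38.p6). The RFX half-site GTTGCC, read on both strands, was in 23 of the 54 (42.6%), against 14.1% of 27025 genes with a window of the same length. It was in 10 of 20 genes called in at least 1 comparison and in 13 of 34 called in none. A full X-box, both half-sites GTTNCC and GGNAAC with 0 to 3 bases between, was in 1 gene, Cfap298 (1.85%), against 0.936% of all. The forkhead core TGTTTAC was in Ak7, Cfap20 and Cfap43 (5.56%), against 4.05% of all. A match of letters is a description and not a bound site. A half-site can lie inside an X-box, so the first 2 counts overlap. The stretches below lie wholly before the RefSeq start and belong to genes whose values are given next, Spag16, Ccdc153 and Tekt1 for the half-site and Ak7 for the forkhead core. They are written along the strand of the gene, and capitals mark 1 motif in each. The Spag16 and Tekt1 stretches also hold the reverse complement of the half-site, left in lower case.
Spag16, chr1:69826817-69826922, plus strand, half-site: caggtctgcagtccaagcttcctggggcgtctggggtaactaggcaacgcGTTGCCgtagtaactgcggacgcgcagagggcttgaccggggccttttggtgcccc
Ccdc153, chr9:44240475-44240580, plus strand, half-site: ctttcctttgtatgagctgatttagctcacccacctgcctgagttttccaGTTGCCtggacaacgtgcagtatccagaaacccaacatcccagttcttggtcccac
Tekt1, chr11:72361883-72361947, minus strand, half-site: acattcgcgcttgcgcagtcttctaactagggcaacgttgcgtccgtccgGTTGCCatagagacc
Ak7, chr12:105705801-105705907, plus strand, forkhead core: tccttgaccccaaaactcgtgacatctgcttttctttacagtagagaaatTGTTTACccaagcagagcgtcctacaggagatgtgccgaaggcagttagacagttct
With Cfap161, whose window held the reverse complement GGCAAC, Spag16, Ccdc153 and Tekt1 are the 4 genes with a half-site among the 7 with a window that were called lower in 3xTg-S than in 3xTg-D.

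As a set, the 67 genes were highest in vehicle-treated WT mice and lowest in inhibitor-treated 3xTg mice. The mean log2 level was highest in WT-D for 47 genes and lowest in 3xTg-S for 41. These counts were not made over all genes, so they describe the set and cannot be set against a background share. Taking each gene against its own mean over the 16 mice, the median deviation of the 67 genes (log2) lay between 0.15 and 0.38 in the WT-D mice and between -0.61 and -0.05 in the 3xTg-S mice. The other groups straddled 0, with medians between -0.26 and 0.32 for 3xTg-D and between -0.18 and 0.20 for WT-S. The 3xTg-S mice were thus all below 0, but 3xTg-S2 stood apart, with the lowest level of 26 of the 67 genes. In a bulk sample, fewer ciliated cells and less RNA per ciliated cell cannot be told apart.

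**Figure D1:**
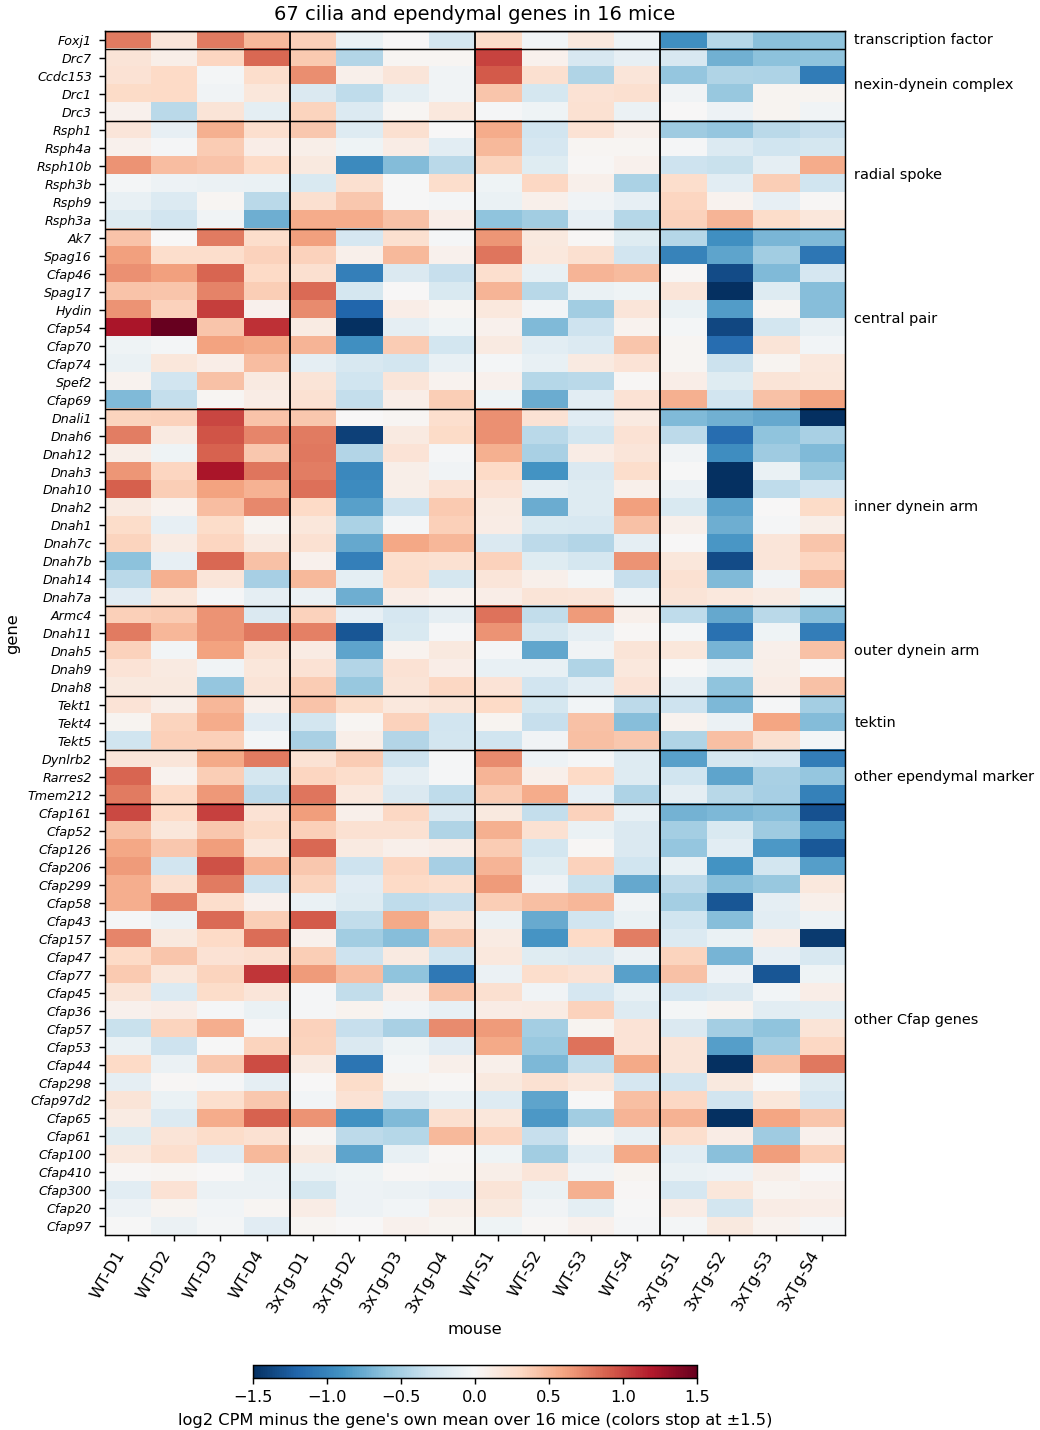
Deviation of log2 CPM from each gene's own 16-mouse mean, for 67 genes (rows, grouped by role and ordered by correlation with Foxj1) in 16 mice (columns), with blue below and red above the mean. Foxj1, Ccdc153, Rsph1, Ak7, Spag16, Dnali1 and Cfap161 are blue in all 4 3xTg-S mice, whereas 3xTg-S2 and 3xTg-D2 are blue for many dynein heavy chains as well.

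Foxj1 (ENSMUSG00000034227.7, chr11:116330704-116335399, minus strand, 2623 exon bases) differed between the groups in the same order. Its level was 9.58, 6.29, 9.55 and 7.80 CPM in the 4 WT-D mice, 6.71, 5.38, 6.18 and 5.26 CPM in WT-S, 7.14, 5.15, 5.57 and 4.57 CPM in 3xTg-D, and 2.87, 4.10, 3.53 and 3.61 CPM in 3xTg-S. Every 3xTg-S mouse was below every mouse of the other 3 groups, while WT-S and 3xTg-D covered much the same range. Means were 8.30 ± 1.58 CPM in WT-D, 5.88 ± 0.69 in WT-S, 5.61 ± 1.1 in 3xTg-D and 3.53 ± 0.50 in 3xTg-S (SD, 4 mice each). The genes called differentially expressed (DEGs) below had an unadjusted p of 0.01 or less by edgeR's quasi-likelihood test, and adjusted p (Benjamini-Hochberg, over all genes tested) are given with them. By that rule Foxj1 was called from WT-D to 3xTg-D (log2 fold change -0.57, SE 0.17, edgeR adjusted p = 0.18) and from 3xTg-D to 3xTg-S (-0.66, SE 0.17, edgeR adjusted p = 0.722). From WT-D to WT-S it was -0.49 (SE 0.16, edgeR adjusted p = 1) and missed the threshold narrowly, with an unadjusted p of 0.01001. Between inhibitor-treated groups it was -0.75 (SE 0.15, adjusted p = 0.0395), and between the extremes WT-D and 3xTg-S it was -1.25 (SE 0.17, adjusted p = 0.00448), a 2.37-fold difference. The inhibitor's effect in 3xTg mice differed from that in WT mice by -0.16 (SE 0.23, unadjusted edgeR p of 0.494), so a difference between genotypes was not detected. The WT-D to 3xTg-D call was lost when any of WT-D1, WT-D3, WT-D4, 3xTg-D2, 3xTg-D3 or 3xTg-D4 was left out, with fold changes from -0.61 to -0.49.

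Inhibitor against vehicle in 3xTg mice called members in 1 direction. Of the 67 genes, 10 were DEGs at an unadjusted p of 0.01 or less, all lower in 3xTg-S (14.9%). Over all 16474 genes tested, 0.904% were called, 0.625% as lower and 0.279% as higher. Values did not overlap between the 2 groups for 11 genes, all lower in 3xTg-S, where 1.77% of all genes were so (1.4% were separated the other way). The median log2 fold change of the 67 was -0.16, against 0.01 for all genes. Of all genes, 0 passed an adjusted p of 0.05 by edgeR and 0 by DESeq2 (edgeR adjusted p = 0.722 for each of the 10). By edgeR 16 of the 67 had an unadjusted p under 0.05, against 1043 of all 16474 genes.

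The 10 genes included members of the central pair, inner dynein arm, regulatory complex, radial spoke and tektins. Foxj1, a transcription factor, and Rarres2, a secreted protein, are not structural parts of the cilium. Of 5 outer-arm genes 0 were called, near the share over all genes (0.904%). Spag16, a central-pair protein, was at 1.48, 1.22, 1.64 and 1.2 CPM in 3xTg-D and 0.523, 0.620, 0.770 and 0.485 CPM in 3xTg-S, 2.30-fold lower (log2 -1.2, SE 0.25). Dnali1, a light chain of the inner dynein arm, was at 2.31, 1.72, 1.75 and 2.07 CPM in 3xTg-D and 1.05, 1.00, 0.962 and 0.539 CPM in 3xTg-S, 2.20-fold lower (log2 -1.14, SE 0.24). Both genes were separated completely between the groups, with the highest 3xTg-S mouse below the lowest 3xTg-D mouse. Ccdc153, a coiled-coil protein widely used as an ependymal marker, was at 6.04, 3.90, 4.19 and 3.54 CPM in 3xTg-D and 2.42, 2.67, 2.63 and 1.73 CPM in 3xTg-S (log2 -0.90, SE 0.21). Ak7, an adenylate kinase of the axoneme, was at 6.31, 3.39, 4.82 and 4.03 CPM and then 3.00, 2.10, 2.5 and 2.53 CPM (log2 -0.87, SE 0.21). Again no 3xTg-S mouse reached the lowest 3xTg-D mouse for either gene. Rarres2, which encodes the secreted protein chemerin and is abundant in ependyma, was at 7.63, 7.29, 5.51 and 5.99 CPM in 3xTg-D and 4.90, 3.48, 4.30 and 4.04 CPM in 3xTg-S (log2 -0.67, SE 0.16). Rarres2 shares 892 exon bases with Lrrc61 on the opposite strand, and the strand setting of the counting is not given in the sources used here, so reads in that stretch could belong to either gene.

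The other called genes were Cfap161 (log2 -1.13, SE 0.28), Cfap126 (log2 -1.04, SE 0.30), Tekt1, a tektin (log2 -0.67, SE 0.20), Foxj1 and Rsph1, a radial spoke head protein (log2 -0.61, SE 0.16). Cfap161 was at 2.14, 1.42, 1.70 and 1.14 CPM in 3xTg-D and 0.784, 0.810, 0.834 and 0.485 CPM in 3xTg-S. Cfap126 lay higher in 3xTg-D1 (3.18 CPM) than in the other 3xTg-D mice (1.80 to 1.89 CPM) and fell between 0.647 and 1.53 CPM in 3xTg-S. Leaving out 3xTg-D1 lowered the count of DEGs in the set from 10 to 6, and leaving out any other mouse gave 7 to 13. Without 3xTg-S2 it was 8. With the share of reads outside genes as a covariate it was 14, which included all 10. Calls over all genes in these refits are not given here, so the changes in the count cannot be read as particular to the set.

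**Figure D2:**
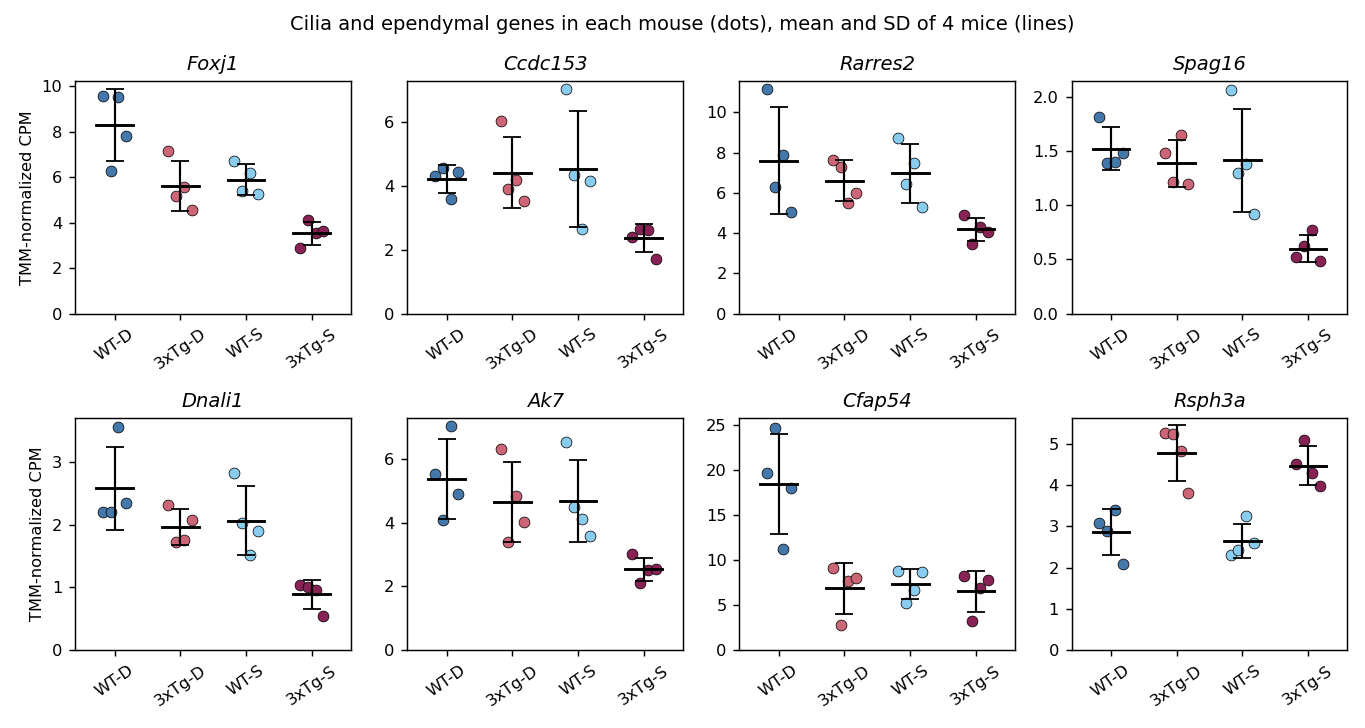
TMM-normalized CPM (vertical axes, from 0) of 8 genes in each mouse (dots), with the mean and SD of the 4 mice of each group (lines). Foxj1, Ccdc153, Rarres2, Spag16, Dnali1 and Ak7 are lowest in 3xTg-S, Cfap54 is at 11.2 to 24.7 CPM in WT-D and at most 9.11 CPM elsewhere, and Rsph3a is higher in both 3xTg groups.

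Markers of other cell types were mostly not called in this comparison, where 0.904% of all genes were called. A count of 0 in a list of 5 is near that share. The 5 listed astrocyte markers had a median log2 fold change of -0.23 with 0 called, 5 microglial markers -0.32 with 0 called, and 5 oligodendrocyte markers -0.31 with 1 called. These astrocyte, microglial and oligodendrocyte markers all had fold changes below 0, with medians lower than the set's (-0.16). By contrast, 6 of 7 neuronal and all 4 endothelial markers were above 0. The oligodendrocyte markers summed to 5293 to 6368 CPM in 3xTg-D and 4059 to 6400 CPM in 3xTg-S. The choroid plexus markers summed to 37.8 to 57.8 CPM in 3xTg-D and 39.1 to 44.6 CPM in 3xTg-S. Of the 8 tested, 6 had a fold change below 0 and 2 above, with 0 called and a median of -0.34, also lower than the set's. The ependymal markers, 5 of which belong to the set itself, summed to between 16 and 24.3 CPM in 3xTg-D and between 10.4 and 12.1 CPM in 3xTg-S. The part of other cell types in the result was not tested.

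Many abundant members did not pass the test in 3xTg mice. Cfap36 was the most abundant per exon length (47.2 CPM per kb), followed by Cfap298 (17.3 CPM per kb) and Cfap300 (10.1 CPM per kb), against 2.22 CPM per kb for Foxj1 and 0.0649 CPM per kb for Dnah7c. From 3xTg-D to 3xTg-S the log2 fold change was -0.04 (SE 0.07) for Cfap36, 0.00 (SE 0.06) for Cfap97 and -0.00 (SE 0.10) for Cfap20. Cfap36, Cfap97 and Cfap20 are transcribed far beyond ciliated cells, and their levels varied by 4.93% to 9.77% (coefficient of variation over 16 mice). None of the 14 dynein heavy chains was called here, and their fold changes ran from -0.79 to 0.27. Of the outer-arm chains, Dnah9, Dnah5 and Dnah8 differed by -0.05 (SE 0.13), 0.13 (SE 0.26) and -0.12 (SE 0.27), and Dnah11 by -0.49 (SE 0.44). Of the inner-arm chains, Dnah1 and Dnah2 differed by -0.15 (SE 0.22) and -0.10 (SE 0.30). Larger differences with wider errors were those of Dnah6 (-0.79, SE 0.39), Dnah12 (-0.75, SE 0.30), Dnah10 (-0.74, SE 0.44) and Dnah3 (-0.60, SE 0.45). Rsph9 and Rsph4a of the radial spoke differed by -0.09 (SE 0.13) and -0.19 (SE 0.12), Drc3 of the regulatory complex by -0.11 (SE 0.12), and the tektins Tekt5 and Tekt4 by 0.36 (SE 0.21) and 0.05 (SE 0.32). The central-pair genes with most reads, Cfap69 and Cfap74, were at 0.26 (SE 0.20) and 0.17 (SE 0.11). The ependymal markers Tmem212 and Dynlrb2 differed by -0.71 (SE 0.33) and -0.74 (SE 0.30), neither past the threshold.

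Between vehicle-treated groups, 7 of the 67 genes were DEGs, 6 lower and 1 higher in 3xTg-D (10.4%), where 4.91% of 16475 genes were called (2.47% lower and 2.44% higher). Values did not overlap for 6 lower and 2 higher genes, against 3.78% and 4.39% of all genes. By edgeR 0 of the 67 passed an adjusted p of 0.05, against 1.85% of all genes. An unadjusted edgeR p under 0.05 was found for 10 of the 67, near the share over all genes (2077 of 16475). By DESeq2 4 of the 67 passed the adjusted threshold, and the share of all genes by that test is not given here. The median log2 fold change of the 67 was -0.22, against 0.00 for all genes. Foxj1 alone was a DEG both here and in the inhibitor comparison above. Cfap54, a very large protein of the central apparatus (chr10:92775619-93081618, 14645 exon bases), was at 19.7, 24.7, 11.2 and 18.1 CPM in WT-D and 9.11, 2.77, 7.63 and 8.0 CPM in 3xTg-D (log2 -1.44, SE 0.33, edgeR adjusted p = 0.0601). All 4 WT-D mice were above all 4 3xTg-D mice. Cfap46, another protein of the same complex of the central apparatus, was at 5.57, 5.28, 6.35 and 4.23 CPM in WT-D and 4.06, 1.63, 2.92 and 2.67 CPM in 3xTg-D (log2 -0.94, SE 0.24). The radial spoke gene Rsph10b was at 3.46, 2.97, 2.90 and 2.65 CPM and then 2.36, 1.05, 1.33 and 1.58 CPM (log2 -0.94, SE 0.23), and it shares exon bases with Pms2 (85) and Gm42421 (325) on the same strand. Smaller or rarer changes were those of Drc1, a core protein of the regulatory complex (8.84 CPM on average in 3xTg-D, log2 -0.38, SE 0.11), and Cfap58 (from 1.47 to 0.880 CPM on average, log2 -0.74, SE 0.22). The count of 7 fell to 4 without 3xTg-D2 and to 4 without 3xTg-D3. In the same comparison 3 of 5 oligodendrocyte markers were called higher in 3xTg-D (median 0.28) and 2 of 8 tested choroid plexus markers lower (median -1.51, WT-D4 included). The part of either in the result was not tested.

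Rsph3a, a radial spoke gene (chr17:7945614-7979824), was the only DEG of the set that was higher in 3xTg mice, under vehicle and under the inhibitor. Of the 67 genes, 13 had a fold change above 0 under vehicle and 16 under the inhibitor. Rsph3a was at 3.08, 2.88, 3.40 and 2.09 CPM in WT-D and 2.30, 2.43, 3.25 and 2.60 CPM in WT-S, but at 5.27, 5.24, 4.82 and 3.81 CPM in 3xTg-D and 4.51, 5.10, 4.30 and 3.99 CPM in 3xTg-S. The 8 3xTg mice were all above the 8 WT mice. The log2 fold change was 0.74 (SE 0.17, edgeR adjusted p = 0.0678) under vehicle and 0.74 (SE 0.16, edgeR adjusted p = 0.0565) under the inhibitor. Its near-identical copy Rsph3b (chr17:6904413-6948682) was at 2.38 to 4.36 CPM over all mice and differed by 0.16 (SE 0.14) under vehicle. Reads can be split between these copies, and between Dnah7a, Dnah7b and Dnah7c, so the values of single copies are uncertain.

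Inhibitor against vehicle in WT mice called 2 of the 67 genes, Cfap54 and Dnah10, both lower in WT-S (2.99%, against 0.188% of 16474 genes, 0.109% lower and 0.0789% higher). Values did not overlap for 6 genes, all lower in WT-S, against 0.716% of all genes (0.765% were separated the other way). By edgeR 0 genes of the table passed an adjusted p of 0.05. An unadjusted edgeR p under 0.05 was found for 12 of the 67, against 371 of all 16474 genes. By DESeq2 1 of the 67 passed the adjusted threshold, and the share of all genes by that test is not given here. The median log2 fold change of the 67 was -0.20, against 0.00 for all genes. Cfap54 was at 8.77, 5.28, 6.73 and 8.67 CPM in WT-S, below every WT-D mouse (log2 -1.32, SE 0.23). Its levels in WT-S, 3xTg-D and 3xTg-S (8.23, 3.19, 6.93 and 7.77 CPM) overlapped, so WT-D alone was set off. Dnah10, an inner-arm heavy chain, was at 2.95, 2.02, 2.40 and 2.24 CPM in WT-D and 1.78, 1.40, 1.33 and 1.63 CPM in WT-S (log2 -0.65, SE 0.19). With the replicate number as a block, 8 genes were called, all lower, among them Cfap54, Dnah10 and Foxj1. Calls over all genes in that fit are not given here, so the rise from 2 to 8 cannot be read as particular to the set. The count of 2 fell to 1 without WT-D1, WT-D3, WT-S2 or WT-S3, and rose to 4 without WT-D2, 5 without WT-S4 and 6 without WT-S1. Without both WT-D4 and WT-S1 it was 6, and with the share of reads outside genes as a covariate it was 1. All 8 tested choroid plexus markers had a fold change below 0 here (median -0.84, 0 called, WT-D4 and WT-S1 included). Their part in the result was not tested.

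The interaction test, of whether the inhibitor's effects differed between the 2 genotypes, called 1 of the 67 genes, Spag16 (1.49%, against 0.595% of all genes, 0.291% with a lower and 0.303% with a higher value in 3xTg mice). A single call in 67 is near that share, and 0 of the 67 passed an adjusted p of 0.05. Spag16 was at 1.81, 1.39, 1.40 and 1.48 CPM in WT-D and 2.06, 1.29, 1.37 and 0.921 CPM in WT-S, with a log2 fold change of -0.10 (SE 0.25) in WT mice, against -1.2 (SE 0.25) in 3xTg mice. The difference was -1.10 (SE 0.34, edgeR adjusted p = 0.788). It did not pass the threshold of 0.01 when WT-D2, WT-D3, 3xTg-D1, 3xTg-D3, WT-S1, 3xTg-S1 or 3xTg-S4 was left out (differences of -1.06 to -0.86), nor with DESeq2, and without both WT-D4 and WT-S1 the count was 0. Ccdc153 had a difference of -1.01 (SE 0.35), which missed the threshold. Cfap54 (1.25, SE 0.47) and Rsph10b (0.86, SE 0.35) had differences in the other direction that missed it too. Of the 67 differences, 38 were below 0 and 29 above. For no member, Spag16 included, was the inhibitor's effect shown to differ between the genotypes.

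Between inhibitor-treated groups, 10 of the 67 genes were DEGs, 9 lower and 1 higher in 3xTg-S (14.9%, against 4.26% of 16475 genes, 2.47% lower and 1.79% higher). Values did not overlap for 10 lower genes (3.53% of all genes were so) and 1 higher gene (3.22%). The lower genes were Foxj1, Dnali1, Rarres2, Ak7, Spag16, Rsph1, Cfap161, Ccdc153 and Armc4, the last a protein that holds outer dynein arms on the doublet, and Rsph3a was higher. Foxj1 alone passed an adjusted p of 0.05 (1.4% of all genes did). Dnali1 was at 2.81, 2.02, 1.51 and 1.90 CPM in WT-S (log2 -1.23, SE 0.28), and Armc4 at 1.78, 0.725, 1.56 and 1.03 CPM in WT-S against 0.719, 0.524, 0.706 and 0.593 CPM in 3xTg-S (log2 -1.03, SE 0.32). The count of 10 fell to 6 without WT-S1, one of the mice with choroid plexus transcripts. It was 10 without 3xTg-S2. The median log2 fold change of the 8 tested choroid plexus markers was -1.51 (0 called), and its part in the result was not tested. This comparison shares the 3xTg-S mice with the vehicle-against-inhibitor comparison above, so the shared names are not separate evidence.

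**Figure D3:**
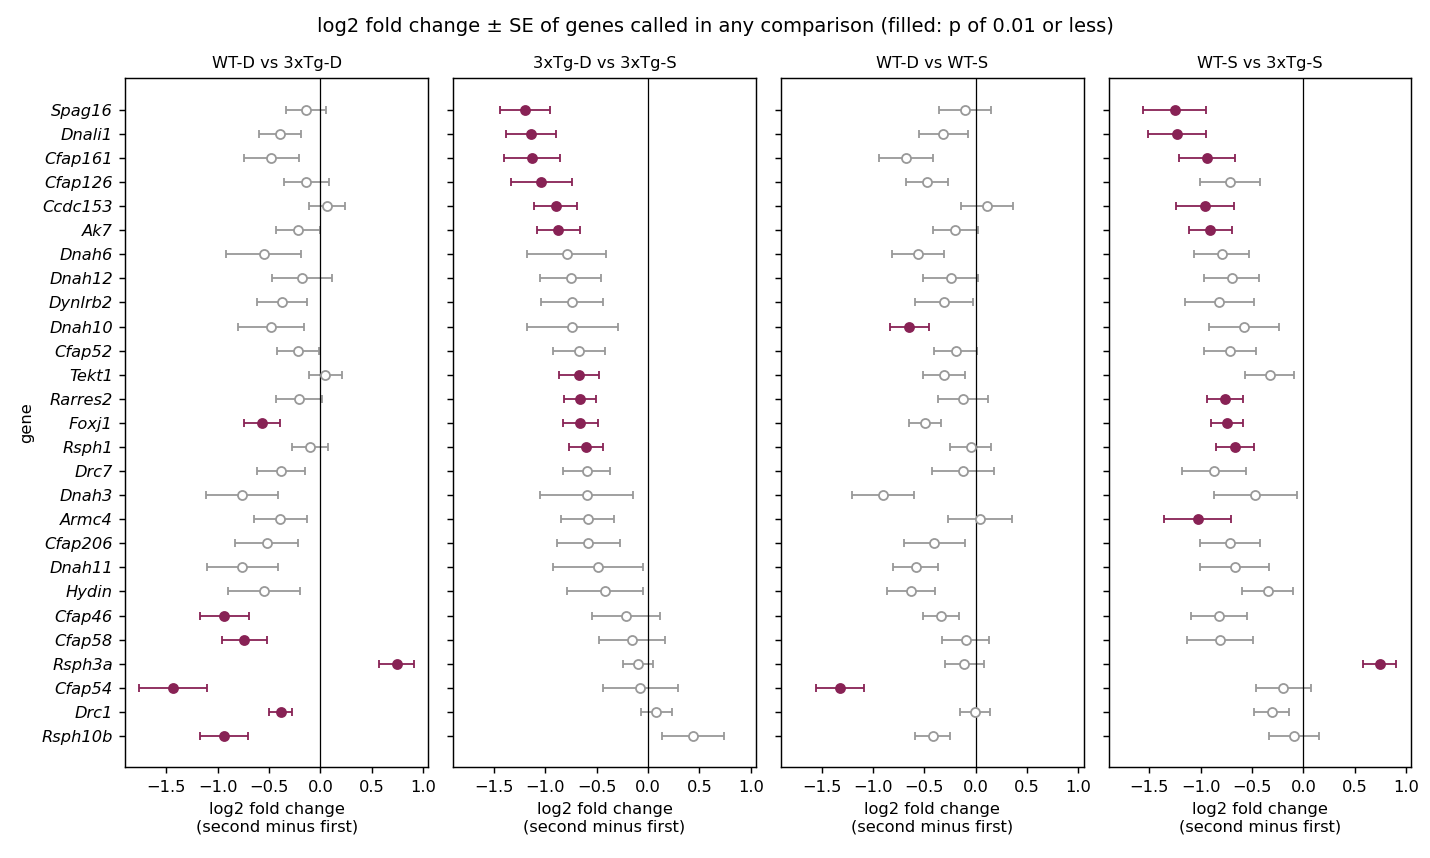
log2 fold change (horizontal axes, second group minus first) with its SE for the 27 genes called in any comparison, in 4 of the pairwise comparisons, with filled symbols for p of 0.01 or less. Spag16, Dnali1 and Ccdc153 are filled in the 2 comparisons that include 3xTg-S, Cfap54 in the 2 that include WT-D, and Rsph3a lies to the right of 0 in both genotype comparisons.

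Genotype and inhibitor together, WT-D against 3xTg-S, separated the set furthest. Of the 67 genes, 23 were DEGs, 22 lower and 1 higher in 3xTg-S (34.3%, against 5.69% of 16475 genes, 3.43% lower and 2.26% higher), and values did not overlap for 23 lower genes (4.42% of all genes) and 1 higher gene (5.14%). The median log2 fold change was -0.48, against 0.00 for all genes. The 8 that passed an adjusted p of 0.05 (1.58% of all genes did) were Foxj1, Dnah6, Dnali1, Spag16, Ak7, Cfap161, Cfap54 and Ccdc153. Dnah6, an inner-arm heavy chain, was at 7.09, 4.56, 8.05 and 6.94 CPM in WT-D and 3.14, 1.81, 2.69 and 2.91 CPM in 3xTg-S, 2.57-fold lower (log2 -1.36, SE 0.22, edgeR adjusted p = 0.0123). The 3xTg-D mice (7.19, 1.51, 4.56 and 5.06 CPM) and the WT-S mice (6.71, 3.11, 3.39 and 4.82 CPM) spread widely and overlapped both. Cfap161 differed 3.09-fold (log2 -1.63, SE 0.29) and Dnali1 2.93-fold (log2 -1.55, SE 0.26).

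By role, WT-D against 3xTg-S called 5 of 11 inner-arm genes (Dnah6, Dnali1, Dnah3, Dnah10 and Dnah12), 2 of 5 outer-arm genes (Dnah11 and Armc4), 2 of 4 genes of the regulatory complex (Ccdc153 and Drc7), 1 of 6 radial spoke genes in each direction (Rsph1 lower, Rsph3a higher) and 0 of 3 tektins. In the central pair 5 of 10 were called, Spag16, Ak7, Cfap54, Cfap46 and Hydin. Hydin, a giant protein of the central apparatus, was at 2.96 to 5.90 CPM in WT-D and 1.53 to 2.89 CPM in 3xTg-S. Over all 16475 genes tested 5.69% were called, 3.43% lower and 2.26% higher. A count of 0 or 1 in lists this small is near those shares, and differences between roles were not tested. The remaining called genes were Foxj1, Rarres2, Dynlrb2, Cfap161, Cfap126, Cfap52 and Cfap206. Leaving out any 1 of the 8 mice gave 18 to 24 called genes, and leaving out WT-D4 gave 21. The tested choroid plexus markers had a median log2 fold change of -2.39 here (2 of 8 called lower), and 2 of 5 oligodendrocyte markers, Mag (-0.42, SE 0.10) and Mog (-0.51, SE 0.13), were called lower too. The part of either in the result was not tested.

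Across the 16 mice the members followed different courses. The correlation with Foxj1 (log2 CPM, Pearson) was above 0.5 for 29 of the other 66 genes (43.9%), against 6.33% of 15875 genes with a mean of 10 or more reads, and was highest for Cfap161 (0.912), Cfap52 (0.852), Ak7 (0.847) and Spag16 (0.840). The points share the group means, so this is no measure apart from the comparisons above. A second part of the set followed the share of reads outside genes. Cfap44 (r = 0.874), Cfap65 (0.835) and Dnah5 (0.801) rose with it, Cfap298 fell (-0.845), and Spag16 (-0.384), Ccdc153 (-0.334) and Foxj1 (-0.177) did not rise with it. Cfap44 was lowest in 3xTg-S2 (2.0 CPM), 3xTg-D2 (3.14 CPM) and WT-S2 (4.25 CPM), the 3 libraries with the lowest such share, and highest in WT-D4 (13.5 CPM). This was not particular to cilia genes, since r with that share was above 0.5 for 20.9% of the 67 and 22.1% of all genes. Among members spanning over 100 kb the median r was 0.33, and among those under 50 kb it was -0.18. All genes of those spans had medians of 0.22 and -0.10.

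**Figure D4:**
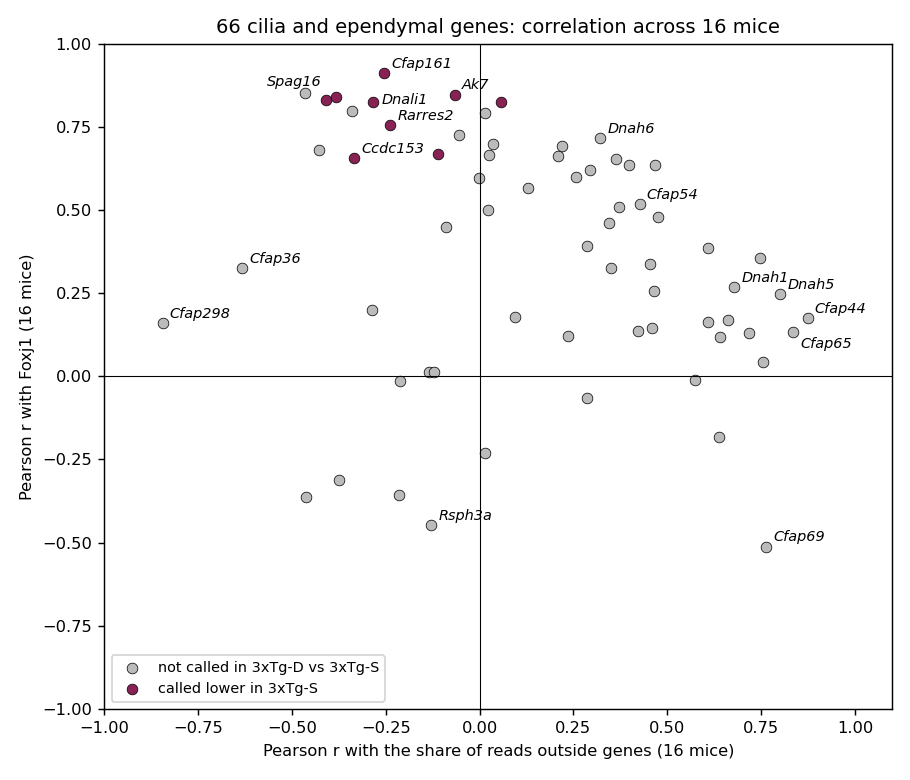
Pearson correlation over 16 mice of each of 66 genes (dots) with the share of reads outside genes (horizontal axis) and with Foxj1 (vertical axis). Genes called lower in 3xTg-S than in 3xTg-D (purple) have r with Foxj1 of at least 0.656 and r with the share of at most 0.058, while Cfap44, Cfap65 and Dnah5 lie at the right.

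Foxj1 itself was tested against 3 properties of the libraries. With Ttr, the main choroid plexus transcript, r was 0.464 (permutation p = 0.0695, adjusted 0.104) and rho 0.45 (permutation p = 0.0829). Without WT-D4 and WT-S1, the 2 mice farthest from the median Ttr, r was 0.401. Within the 8 WT mice it was 0.195 (exact permutation p = 0.638) and within the 8 3xTg mice 0.403 (exact permutation p = 0.32). With the share of reads outside genes r was -0.177 (permutation p = 0.513, adjusted 0.513) and rho -0.126 (permutation p = 0.639), and r was -0.144 without the 2 farthest mice. With log2 reads on genes r was 0.563 (permutation p = 0.023, adjusted 0.0691) and rho 0.45 (permutation p = 0.0816). That relation rested on 3xTg-S1 and 3xTg-S3, the libraries with fewest reads, as r was 0.207 without them, and it was 0.427 (exact permutation p = 0.289) within WT mice and 0.463 (exact permutation p = 0.249) within 3xTg mice. The part of depth in the Foxj1 result was not tested further.

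Other lists held further genes of the pathway. Of 52 tested genes of docking complexes, rulers and other axonemal parts, 3 fell from 3xTg-D to 3xTg-S (Fam216b, Lrrc23 and Sntn) and 0 rose, with a median log2 fold change of -0.18, where 0.625% of all genes were called lower. From WT-D to 3xTg-S 12 fell and 0 rose, with a median of -0.38, where 3.43% of all genes were called lower. Wdr63, which belongs to an inner dynein arm, differed by genotype. It ranged over 1.54 to 3.65 CPM in WT-D and 0.49 to 1.43 CPM in 3xTg-D (log2 -1.88, SE 0.37, edgeR adjusted p = 0.0329), and over 1.29 to 3.47 CPM in WT-S against 0.191 to 0.457 CPM in 3xTg-S (log2 -2.59, SE 0.39, edgeR adjusted p = 0.00753). Zmynd10, a factor that assembles dynein arms in the cytoplasm, was likewise lower under vehicle in 3xTg mice (log2 -0.88, SE 0.15, edgeR adjusted p = 0.0138) and was 1 of 10 assembly factors called there, where 4.91% of all genes were called.

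Some cilia genes are used by ciliated and non-ciliated cells alike. Of 29 genes of intraflagellar transport and the BBSome, which carry cargo along every cilium, 0 were called from 3xTg-D to 3xTg-S and 0 from WT-D to WT-S (0 in each at an unadjusted p under 0.05 by edgeR), with medians of 0.07 and 0.00. Under vehicle Arl3 was higher in 3xTg mice (log2 0.35, SE 0.07) and Ift57 lower (log2 -0.24, SE 0.06). With 0.904% and 0.188% of all genes called in these comparisons, a count of 0 in a list of this size is near that share, and a difference from the set was not tested. Of 10 subunits of cytoplasmic dynein, 0 were called in either inhibitor comparison (0 at an unadjusted p under 0.05 by edgeR). Among 10 tested regulators of multiciliated cells, which include the RFX factors, 0 were called in any pairwise comparison, with 0 to 2 at an unadjusted p under 0.05 by edgeR. Between 0.188% and 5.69% of all genes were called in the pairwise comparisons. A count of 0 in a list of 10, for cytoplasmic dynein or the regulators, is near those shares. Rfx3 was at 102 to 145 CPM and Rfx2 at 2.18 to 3.63 CPM over the 16 mice, and Mcidas was at 0.048 to 0.295 CPM, too low to test. Deup1, which amplifies centrioles for multiciliation, had an interaction of -1.39 (SE 0.48, edgeR adjusted p = 0.788) and was called.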

How the data were processed

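Raw read counts per gene were deposited by the authors for 16 mice. Reads were trimmed with Trimmomatic 0.35 and aligned with STAR 2.5.1b to GRCm38, per the labels' processing notes, with Gencode M23 per the study's methods. Strand setting and removal of duplicates by molecular identifiers are not given in the sources used here. Summary lines that name no gene were kept out of library sizes and tests, and gave the share of reads outside genes. The labels' shared protocol names another inhibitor product than the sample titles, whose name is used here.

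edgeR 4.0.16 (R 4.3.3) quasi-likelihood tests (two-sided, TMM, filterByExpr over 16 mice) were run on the 8 mice of each pair, and over 16 mice for the interaction. DEGs had an unadjusted p of 0.01 or less, and Benjamini-Hochberg adjusted p over all tested genes stand beside them. All 67 genes passed the filter. Scripts were tested on simulated data. Alternatives were DESeq2 1.42.0, median-ratio size factors, no filter, a replicate block, leaving out each mouse and, chosen after seeing the data, leaving out WT-D4 and WT-S1 or adding the outside share as covariate. Same-numbered mice deviated together in WT-D and WT-S (r from 0.114 to 0.34 over genes), so the block is printed there. In the other pairs some r were under 0.1. Their mean r was nonetheless up to 0.241 (WT-S vs 3xTg-S), against 0.217 for WT-D vs WT-S. The labels state no batch and do not tie mice to litters. The p-values of the main fits take the mice as independent, which the labels cannot settle.

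Genes named were the 3 with most reads per role, Foxj1, genes called in any comparison, those nearest a mean of 10 reads and the 15 others most correlated with the set. Lists and members were chosen with earlier results of these data known. Positions and exon lengths are from Gencode M21 (GRCm38). A further element of the 3xTg genotype is not reported here.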

Additional observations from a re-analysis of the deposited data

Results flagged for a closer look

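Among the genes called in any comparison, and Ttr, 8 values stood apart from the other 3 mice of their group by Dixon's test at the 95% level, of 112 groups examined. Chance flags about 1 in 20 groups. Cfap126 was at 3.18 CPM in 3xTg-D1, against 1.80 to 1.89 CPM in the other 3xTg-D mice. Cfap161 was at 0.485 CPM in 3xTg-S4, against 0.784 to 0.834 CPM, and Dnali1 at 0.539 CPM in the same mouse, against 0.962 to 1.05 CPM. Dnali1 was also at 3.55 CPM in WT-D3, against 2.19 to 2.35 CPM. Dynlrb2 was at 1.5 CPM in WT-S1, against 0.759 to 0.870 CPM, and Rsph10b at 3.18 CPM in 3xTg-S4, against 1.67 to 1.92 CPM. Ttr was at 637 CPM in WT-D4, against 1.81 to 31.6 CPM, and at 245 CPM in WT-S1, against 2.56 to 3.62 CPM. The inhibitor's effect on Spag16 differed between genotypes by -1.10 on the log2 scale (edgeR interaction test, adjusted p = 0.788, past the unadjusted threshold of 0.01).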

How the results depend on the processing

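Counts are of the 67 genes called, against 7 (WT-D vs 3xTg-D), 10 (3xTg-D vs 3xTg-S), 2 (WT-D vs WT-S), 10 (WT-S vs 3xTg-S), 23 (WT-D vs 3xTg-S) and 1 (interaction). At an adjusted p of 0.05 they were 0, 0, 0, 1, 8 and 0. The replicate block gave 6, 14, 8, 16, 27 and 4. In every comparison the mice share only a number, so the block is not a paired design. Without a filter WT-D vs WT-S gave 4 and the interaction 3, and the interaction gave 2 with median-ratio size factors and 2 with DESeq2. Without WT-D4 and WT-S1 the counts were 6 (WT-D vs WT-S), 6 (WT-S vs 3xTg-S) and 0 (interaction), and with the outside share as covariate 1, 16 and 0. Leaving out 1 mouse gave 4 to 8, 6 to 13, 1 to 6, 6 to 12, 18 to 24 and 0 to 3. Calls over all genes in these alternative fits are not given here, so the moves cannot be read as particular to the set. Their cause was not tested. Fold changes of called genes and of Foxj1 kept their sign in all 456 fits without 1 mouse and all 320 other fits, and 89 and 24 of them lost the call. Foxj1's r with reads on genes was 0.207 without the 2 farthest mice, 0.427 within WT and 0.463 within 3xTg, none with a permutation p of 0.05 or less. Its r with the outside share was 0.233 within WT and thus reversed. Low members were limited by depth, with 1 CPM being 15 to 24 reads.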

Other observations

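The genes outside the set whose profile over 16 mice was most like the set's mean log2 level were Ttc21a (Pearson r = 0.945), Ccdc162 (0.916), Ccdc180 (0.897), Ccdc187 (0.877), Lrrc9 (0.87), Nek5 (0.859), Cdhr3 (0.855), Lrrc23 (0.853), Slc14a2 (0.846), Lrrc74b (0.839), Wdr63 (0.839), Iqca (0.837), Lrrc36 (0.834), Musk (0.83) and Pih1d2 (0.828). They had means of 13.4 to 55.6 reads. The highest r with Foxj1 alone outside the set were those of Frmpd2 (0.894), 2410004P03Rik (0.887) and Ppp1r32 (0.879). All these points share the group means and the depth of the libraries, and no p is given.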
